A study of Arabidopsis thaliana with 4 samples.

Results

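Transcripts of the xyloglucan endotransglucosylase/hydrolase (XTH) genes of Arabidopsis thaliana were compared between ced2, a mutant, and its wild type under osmotic stress. The 33 members, XTH1 to XTH33, were taken by their locus numbers, and all 33 had a probe on the array, among 25356 genes. For 30 members the probe stood well above background on the 2 arrays of 1 or both genotypes, and these were tested among 20835 genes in all. The other 3 members (XTH1, XTH2 and XTH3) were not measurable. The wild type was an NCED3pro:LUC line, in which the NCED3 promoter drives luciferase, in a gl1 Columbia background, and the second group was the ced2 mutant, labelled with the same gl1 ecotype. The labels do not name the gene altered in ced2. Seedlings of both groups were grown for 14 d and kept in a 40% solution of polyethylene glycol (PEG), which draws water from the tissue, for 6 h. RNA came from whole seedlings, with 20 plants in each pool, and 2 pools of each genotype were hybridised to one-colour arrays. No seedlings without PEG are among the samples, so every value below belongs to stressed tissue.

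Xyloglucan is a polysaccharide that coats and links the cellulose microfibrils of growing plant cell walls. XTH enzymes cut its backbone and either join the cut end to another xyloglucan chain, which rebuilds the wall as a cell expands, or pass it to water, which shortens the chain. The family is divided by sequence into group 1 (XTH1 to XTH11), group 2 (XTH12 to XTH26) and group 3 (XTH27 to XTH33), and its members differ in the organs and cells that express them, from root hairs to leaf veins.

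Directions below follow the genotype labels of the scanner files, and the authors' deposited value table gives the opposite directions. Each column of that table held the values of a file that carries the other genotype (r between 0.999918 and 0.999977 across probes) and not the file of its own sample (r between -0.573 and -0.369). NCED3, a dioxygenase of abscisic acid synthesis, read 0.68 and 0.67 in the WT files and -0.65 and -0.67 in the ced2 files. The vacuolar sorting receptor VSR1 read 2.80 and 2.87 in the WT files and -0.85 and -0.82 in the ced2 files. These and all levels below are log2 processed signals relative to the 75th percentile of the array, so that 0 is that percentile, and a level of one gene is not comparable with that of another. The 75th percentile of the signal itself was 3342 and 2807 on the WT arrays and 3724 and 4465 on the ced2 arrays, and no probe was saturated. All 4 arrays lay on 1 slide, the WT arrays at positions 1 and 2 and the ced2 arrays at 4 and 3, and the effects of position and genotype cannot be told apart. Replicate arrays were very close, with a median SD between arrays of 0.0272 for WT and 0.0194 for ced2, over 22020 probes above a log2 level of -3. The repeat spots of 8 such probes on 1 array had a median SD of 0.0502 to 0.0624. The p-values measure only the spread between the 2 arrays of a group. Whether that spread covers the difference between separately grown pools was not tested.

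The XTH family was largely higher in the ced2 files. Of the 30 members tested, 24 were higher, 5 were lower and XTH13 did not pass (limma adjusted p under 0.05), where 77.9% of all genes tested passed, 42.4% higher and 35.6% lower. At a minimum of 2-fold, 16 of 30 members were higher and 1 was lower, against 8.01% and 3.32% of all genes. The median log2 difference (ced2 files minus WT files) was 1.12 over the members and 0.05 over all genes tested. The levels of the 2 groups did not overlap for 29 of 30 members, but 90.2% of all genes show no overlap. The differences ran from -1.76 for XTH29 to 2.97 for XTH31. Values were also taken with normexp, a model-based background correction, fitted on all spots. The model was fitted again without 7 spots of the WT arrays that were at or below their local background. Both fits add an offset of 50 to every corrected signal. Both fits are given beside a member whose difference moved by over 1.5 times or lost its call.

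**Figure D1:**
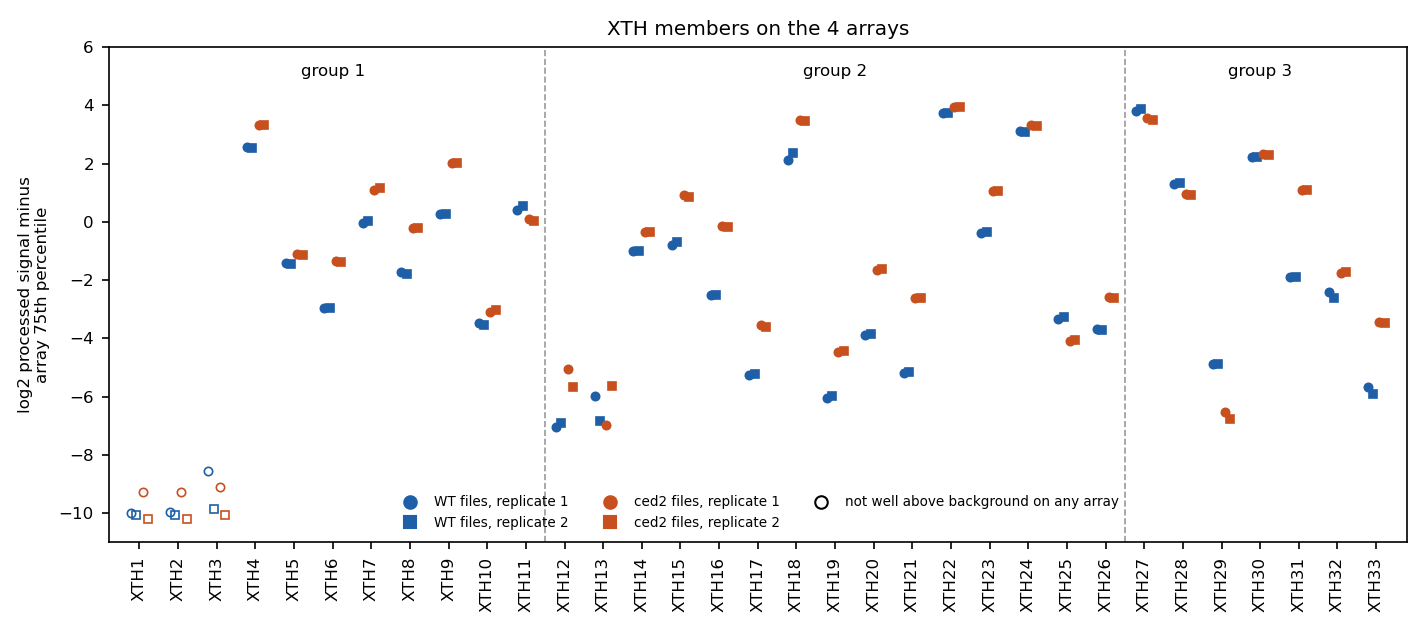
Level of each XTH member on each of the 4 arrays, as log2 processed signal minus the 75th percentile of the array, with dashed lines between the sequence groups. The ced2 points lie above the WT points for most members, below them for XTH11, XTH25, XTH27, XTH28 and XTH29, and are mixed for XTH13; open symbols mark XTH1, XTH2 and XTH3, not well above background on any array.

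XTH31 (AT3G44990), a group 3 enzyme known from roots for its hydrolase activity and its part in aluminium binding by the wall, had the highest difference of the family. It read -1.88 and -1.91 in the WT files and 1.08 on both ced2 arrays. The gap of 2.97 (SE 0.0229, n = 2 per group, limma adjusted p = 0.00016) is a 7.86-fold difference, and each pair of replicate arrays lay within 0.1. XTH33 (AT1G10550), an isoform held at the plasma membrane, read -5.65 and -5.90 in the WT files and -3.44 and -3.47 in the ced2 files. It was 4.99-fold higher (limma adjusted p = 0.000357), with its WT arrays further apart than its ced2 arrays. The log2 difference of 2.32 fell to 0.72 with normexp on all spots and 1.49 without the faulty spots. XTH32 was higher by 0.78 (95% interval 0.54 to 1.01). Its difference was 0.51 with normexp on all spots and 0.69 without the faulty spots.

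The rest of group 3 went the other way or barely differed. XTH29 (AT4G18990), an isoform known to be induced by heat and drought, read -4.88 and -4.89 in the WT files and -6.52 and -6.76 in the ced2 files. It was 3.38-fold lower (limma adjusted p = 0.00054), the only member lower by 2-fold or more. The difference of -1.76 was -1.67 with normexp on all spots and -1.02 without the 7 spots. XTH27, known from the vessels of leaf veins, was lower by 0.29 (-0.29, limma adjusted p = 0.0076), and XTH28, known from stamen filaments, by 0.37 (-0.37, limma adjusted p = 0.000829). XTH30, known from work on salt tolerance, was higher by 0.10 (limma adjusted p = 0.0321), a call that ended when any of the 4 arrays was left out (adjusted p between 0.0866 and 0.171). XTH30 also did not pass with normexp, at 0.12 on all spots (limma adjusted p = 0.0546) and 0.08 without the 7 spots (limma adjusted p = 0.105). In all, 4 of 7 group 3 members were higher and 3 lower, with a median difference of 0.10. Over all genes tested 42.4% were higher and 35.6% lower, with a median of 0.05.

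Group 2 held most of the higher members, with 13 of 15 higher, 1 lower, 1 not past the test and a median difference of 1.44. The shares over all genes tested were 42.4% higher and 35.6% lower. XTH21 (AT2G18800), known for its part in primary root growth, read -5.20 and -5.17 in the WT files and -2.61 and -2.60 in the ced2 files. It was 5.98-fold higher (SE 0.0247, limma adjusted p = 0.00016), a log2 difference of 2.58 that fell to 1.302 with normexp on all spots and 1.97 without the faulty spots. XTH16 (AT3G23730) read -2.51 on both WT arrays and -0.15 and -0.19 on the ced2 arrays. That is a 5.06-fold difference (limma adjusted p = 0.00016). In both genes the ced2 arrays lay far above the WT arrays, by many times the gap between replicates.

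XTH17, XTH18, XTH19 and XTH20 form a subset of group 2 known for expression in roots, each in its own zone, and all 4 were higher by 2-fold or more with 75th percentile scaling. For XTH19 neither normexp fit gave 2-fold. XTH20, known from the vascular tissue of the mature root, read -3.87 and -3.85 in the WT files and -1.65 and -1.63 in the ced2 files, or 4.68-fold higher. XTH17, also known from petiole elongation in shade, read -5.25 and -5.21 in the WT files against -3.56 and -3.60, or 3.15-fold higher. XTH19 read -6.04 and -5.98 against -4.47 and -4.43, or 2.94-fold higher, and XTH18 read 2.12 and 2.36 against 3.48 and 3.46, or 2.35-fold higher. The limma adjusted p lay between 0.00016 and 0.00118 for these 4 genes. With normexp on all spots XTH19 stood at -0.077 (limma adjusted p = 0.565), XTH17 at 0.37 and XTH20 at 1.46, and without the faulty spots at 0.75, 1.05 and 1.87. XTH17 and XTH18 are close in sequence, and whether their probes separate them was not tested.

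XTH14 and XTH26, isoforms known from root hairs, were both higher. XTH26 read -3.70 and -3.71 in the WT files and -2.58 and -2.61 in the ced2 files, 2.15-fold higher (limma adjusted p = 0.000186). Its log2 difference of 1.11 fell to 0.55 with normexp on all spots and 0.91 without the 7 spots, both under 2-fold. XTH14 read -1.01 and -1.02 against -0.36 on both ced2 arrays, higher by 0.65 (limma adjusted p = 0.000253) and short of 2-fold. The root isoforms XTH12 and XTH13, near copies whose probes may not separate them, were dim and the least repeatable of the family. XTH12 read -7.03 and -6.91 in the WT files and -5.04 and -5.68 in the ced2 files, 3.05-fold higher, and its call ended without WT replicate 1 (limma adjusted p = 0.0571, against 0.00746 with all 4 arrays). It also ended with normexp, at -0.51 on all spots (limma adjusted p = 0.0956) and 0.48 without the 7 spots (limma adjusted p = 0.0706). XTH13 read -5.96 and -6.85 against -6.99 and -5.65, so its groups overlapped, with a difference of 0.09 (95% interval -1.71 to 1.88). With normexp on all spots XTH13 was lower by 1.095 (-1.095, limma adjusted p = 0.00542), and without the 7 spots it did not pass (-0.18).

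XTH15 (AT4G14130), known for its induction in shade, read -0.81 and -0.71 in the WT files and 0.91 and 0.86 in the ced2 files. It was 3.12-fold higher (limma adjusted p = 0.000225). XTH23, known from lateral root formation in salt, read -0.39 and -0.36 against 1.07 and 1.05, 2.71-fold higher (limma adjusted p = 0.00016). By contrast XTH22, the touch-induced gene TCH4, was higher by only 0.20 (95% interval 0.13 to 0.26), as was XTH24, the meristem gene MERI5 (0.20, 95% interval 0.12 to 0.27). XTH25 was the one lower member of group 2, by 0.77 (-0.77, limma adjusted p = 0.000431).

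In group 1, 7 of 8 members tested were higher and 1 was lower, against 42.4% and 35.6% of all genes. The median difference of the group was 0.95. XTH9 (AT4G03210), known with XTH4 for its part in vessel and fibre walls of the stem, read 0.26 on both WT arrays and 2.02 on both ced2 arrays. It was 3.38-fold higher (SE 0.0211, limma adjusted p = 0.00016), whereas XTH4 read 2.56 and 2.53 against 3.32 and 3.31, higher by 0.77 (95% interval 0.70 to 0.84). The intervals of the 2 genes do not overlap, but they hold only the spread between arrays for 1 probe of each gene. The second probes gave 0.98 for XTH4 and 1.89 for XTH9, each above the interval of its gene.

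Group 1 held 3 more members past 2-fold. XTH6 (AT5G65730) read -2.96 and -2.97 in the WT files and -1.36 and -1.37 in the ced2 files, 3.02-fold higher. XTH8 read -1.73 and -1.80 against -0.21 on both ced2 arrays, 2.94-fold higher, and XTH7 read -0.05 and 0.01 against 1.07 and 1.14, 2.18-fold higher. Their limma adjusted p lay between 0.00016 and 0.000281. XTH10 and XTH5 were higher by 0.44 and 0.31, and XTH11 was lower by 0.40 (-0.40, limma adjusted p = 0.00599). With normexp on all spots XTH10 did not pass (0.03, limma adjusted p = 0.654). Without the spots at or below their local background XTH10 passed, at 0.38 (limma adjusted p = 0.000791).

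XTH1, XTH2 and XTH3, the last an enzyme that can join xyloglucan to cellulose in vitro, were not well above background on any array. XTH1 read -9.98 and -10.06 in the WT files and -9.29 and -10.21 in the ced2 files, and XTH2 read -9.95 and -10.06 against -9.28 and -10.21. The levels of the 3 genes lay between -10.21 and -8.55 with the genotypes mixed, and no difference is given for them.

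**Figure D2:**
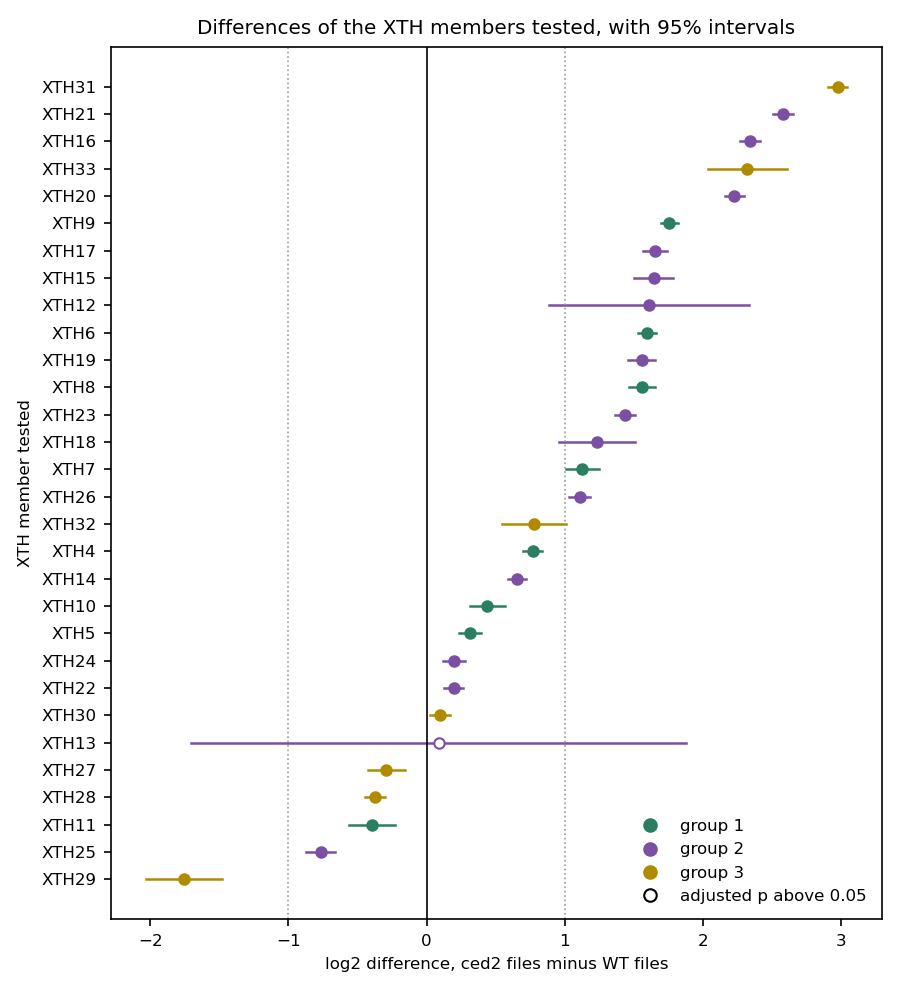
Log2 difference (ced2 files minus WT files) of the 30 members tested, ordered by size, with the 95% interval from limma as a line and colours for the sequence groups; dotted lines mark 2-fold. XTH31 is at the top with 2.97, XTH29 at the bottom with -1.76, and the interval of XTH13 spans 0.

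Of the 5 members lower in the ced2 files, the smaller differences rest on the scaling between arrays. Before scaling, the processed signal of XTH27 was 46510 and 40820 on the WT arrays and 44530 and 50350 on the ced2 arrays, so the groups overlapped. The same held for XTH11 and XTH28, and also for XTH13. The signals of XTH29 (113.8 and 94.76 against 40.62 and 41.27) and XTH25 (330.3 and 290.5 against 218.6 and 269) were lower in the ced2 files without scaling too.

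Several members lie beside each other on the chromosomes. No test between neighbours was made, and their differences are set side by side. The 95% intervals hold only the spread between arrays for 1 probe of each gene, not the spread between probes. On chromosome 4, XTH24, XTH18 and XTH19 are consecutive genes. XTH24 read 3.10 and 3.09 in the WT files and 3.32 and 3.28 in the ced2 files, a difference of 0.20. XTH18 and XTH19 were both higher by 2-fold or more with percentile scaling. Their 95% intervals overlapped (0.95 to 1.51 and 1.46 to 1.66) and lay above that of XTH24 (0.12 to 0.27). With normexp on all spots XTH19 stood at -0.077 (limma adjusted p = 0.565), below XTH24 at 0.21. Without the spots at or below their local background XTH19 stood at 0.75, under 2-fold, and XTH24 at 0.18. XTH18 stayed past 2-fold in both fits, at 1.27 and 1.23. Also on chromosome 4, XTH23 and XTH14 are consecutive, with differences of 1.44 and 0.65 whose 95% intervals (1.37 to 1.51 and 0.59 to 0.72) do not overlap. On chromosome 5 the order is XTH12, XTH13, XTH25 and XTH22, where XTH13, XTH25 and XTH22 are consecutive. XTH25 read -3.34 and -3.27 in the WT files and -4.09 and -4.05 in the ced2 files, and its neighbour XTH22 read 3.74 on both WT arrays against 3.95 and 3.93. The adjoining genes XTH25 and XTH22 thus differed in opposite directions, both past the threshold. The consecutive pair XTH1 and XTH2 was not measurable.

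**Figure D3:**
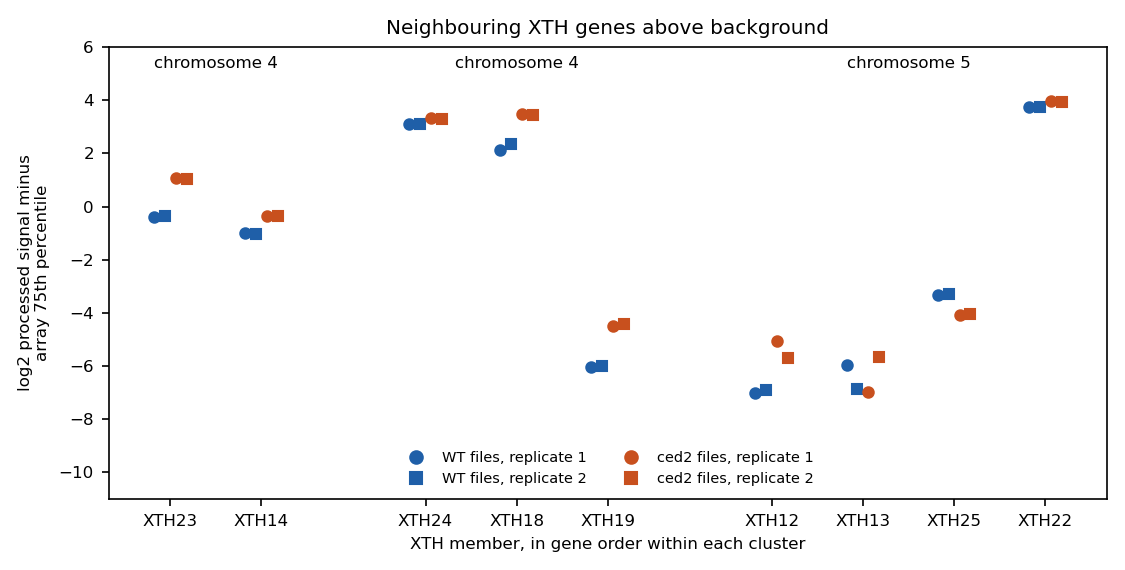
Level on each array of the members that lie in 3 clusters, in gene order, as log2 processed signal minus the 75th percentile of the array. The ced2 points are below the WT points for XTH25 and above them for XTH12 and XTH22 in the same cluster.

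The array carried more than 1 probe for 6 members, and for 5 of them the probes of a member gave the same direction. The 2 probes of XTH9 differed by 1.76 and 1.89 between the files, and those of XTH15 by 1.64 and 1.76. The second XTH21 probe was well above background on 2 arrays, those of the ced2 files, so no difference is given for it. The 5 probes of XTH24 gave differences between 0.11 and 0.20. For XTH4 the values were 0.77 and 0.98, and for XTH27 -0.29 and -0.13.

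Counts for other wall genes are read against the 42.4% of all genes tested that were higher and the 35.6% that were lower. Of 14 genes of xyloglucan synthesis, 9 were higher, 0 were lower and 5 did not pass by limma, with a median of 0.46. At an unadjusted p under 0.05, 1 gene was lower, the acetyltransferase gene AXY4 (difference -0.10, limma adjusted p = 0.0575). The glucan synthase gene CSLC12 was the one past 2-fold, 2.57-fold higher (-6.39 and -6.37 in the WT files against -5.02 on both ced2 arrays). CSLC12 was dim, at a brightness percentile of 9.38 among all genes tested. Of 5 enzymes that trim xyloglucan side chains and fragments, 3 were higher, 1 was lower and 1 did not pass. The galactosidase gene BGAL10 was the lower one, at 0.93 and 1.02 in the WT files and -0.35 and -0.32 in the ced2 files, 2.48-fold apart. Alpha-expansins, wall-loosening proteins that cut no polymer, were higher in 11 of 18 tested, lower in 2 and not past in 5, with a median of 0.61. EXPA7 and EXPA18 are also among the root hair markers below. EXPA6 was higher by 1.64, EXPA18 by 1.61, EXPA15 by 1.23 and EXPA14 by 1.05. Of 6 primary-wall cellulose synthases, 4 were higher and 2 did not pass, and all 6 differences were under 2-fold. The share of members past 2-fold in either direction was 56.7% for XTH, 22.2% for the expansins, 7.14% for xyloglucan synthesis and 12.3% over all genes tested. It was 20% for the trimming enzymes and 0% for the cellulose synthases. Among the marker lists below, it was 50% for root hairs and 50% for flower and seed. For the xylem, leaf and guard cell markers it was 0%. Such shares describe the lists, and no test between lists was made.

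**Figure D4:**
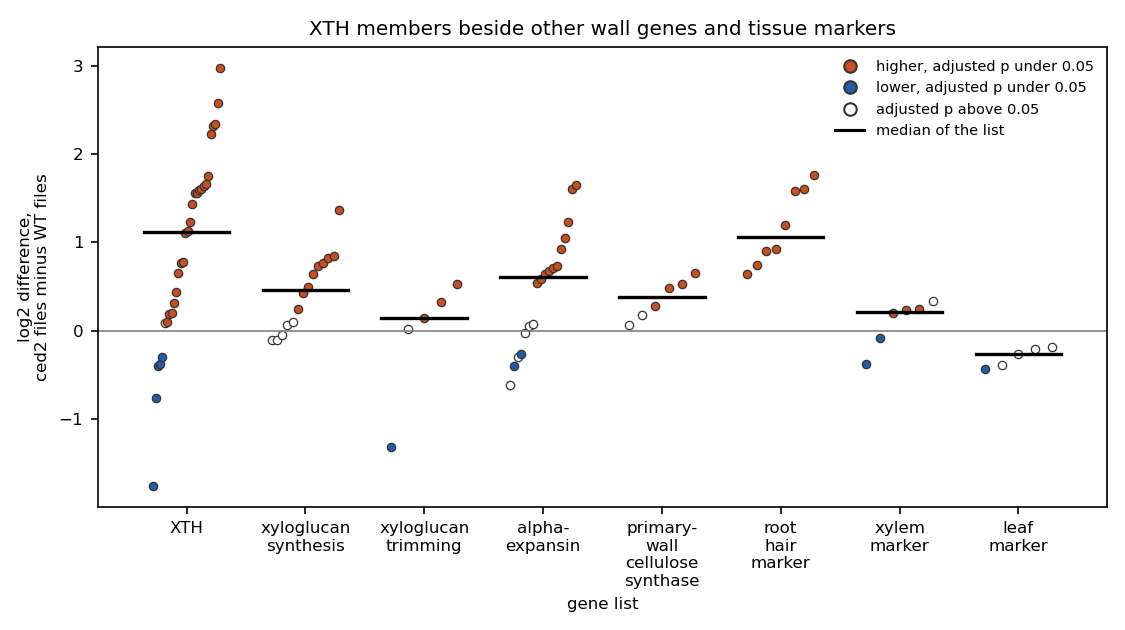
Log2 difference (ced2 files minus WT files) of each tested gene in the XTH family, 4 lists of other wall genes and 3 lists of tissue markers; a bar marks the median of each list and fill marks the limma call. The median is 1.12 for XTH, 1.06 for the root hair markers and -0.27 for the leaf markers. The flower and seed markers (median 1.17) and the guard cell markers (median 0.42) are not drawn.

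Markers of root hairs moved with the genotype beside these values, again with 42.4% of all genes higher and 35.6% lower. All 8 root hair markers were higher in the ced2 files (median 1.06), and their summed level, the sum of unlogged normalized signals, was 0.361 and 0.346 on the WT arrays and 0.850 and 0.836 on the ced2 arrays. The 8 include EXPA7 and EXPA18, counted with the expansins too. The root hair gene COBL9 was higher by 1.76, the regulator RSL4 by 1.58 and EXPA18 by 1.61, and the regulator RHD6 was 2.29-fold higher. Of 5 leaf markers, 1 was lower and 4 did not pass, with a summed level of 539 and 621 on the WT arrays and 502 and 428 on the ced2 arrays. Of 6 xylem markers, 3 were higher, 2 were lower and 1 did not pass, none by 2-fold. Leaf, root hair and xylem markers were well above background on all 4 arrays, as whole seedlings would give. Of 5 flower and seed markers, 3 were above background on all 4 arrays and higher (summed level of the list 0.0450 and 0.0397 against 0.116 and 0.126), and OLEO1 was not above background on any. CRA1, a seed storage protein gene, was 4.93-fold higher and the floral gene AP3 was 3.42-fold higher. Both were dim, at brightness percentiles of 13 and 7.14 among all genes tested, and the root hair markers lay between 5.33 and 25.9. Dim genes leaned toward the ced2 files, as given below, and no normexp value is given for the markers. Guard cell markers were higher in 2 of 3. The part of these tissues in the XTH values was not tested, and in whole seedlings more cells of a type and more RNA per cell cannot be told apart.

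The size of a difference depended on brightness. With all genes tested split by mean level into 5 equal bins, the median difference was 0.30 in the dimmest bin and -0.10 in the brightest, so dim genes leaned toward the ced2 files. In the brightest 3 bins, which hold 17 of the members, 14 members were higher and 3 lower, against 36.5% and 44% of the genes there. At 2-fold these numbers were 8 and 0 of 17, against 3.2% and 2.34%. Normexp background correction was also fitted without the 7 spots at or below their local background. With it, 22 of 30 members were higher and 5 lower, against 36.7% and 36.3% of all genes. By 2-fold 13 were higher, against 3.91%. Under that setting XTH31 was higher by 2.84, XTH16 by 2.19 and XTH9 by 1.73, close to the values above. The dim members XTH12, XTH17, XTH19, XTH21, XTH29 and XTH33 moved further, by the values given beside each. The added offset of 50 itself draws log2 differences of dim genes toward 0. For scale, the processed signal of XTH12 was 25.63 and 23.27 on the WT arrays. How much of each move came from the offset and how much from the background correction was not tested.

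**Figure D5:**
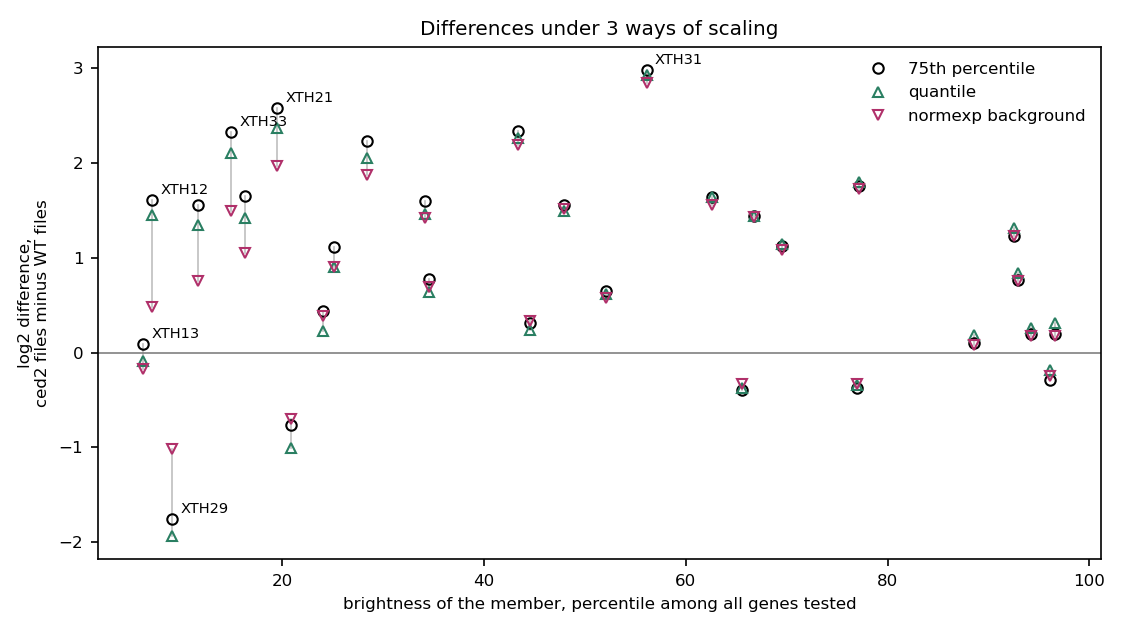
Log2 difference (ced2 files minus WT files) of each member tested against its brightness, as the percentile of its mean level among all genes tested. Symbols show 75th percentile scaling, quantile normalization and normexp background correction fitted without the spots at or below their local background. The symbols of a member lie together in the brighter part of the range and spread apart for dim members such as XTH12 and XTH33.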

How the data were processed

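Total RNA of 2 pools per genotype was labelled with Cy3 and hybridised, per the labels. Per the submitters' processing notes and the file headers, Agilent Feature Extraction 10.7.1.1 read the scans, and the deposited values are spot intensities on a linear scale, background-subtracted and detrended, with no normalization between arrays. Log2 values make up the authors' deposited value table, and how they were made is not given in the sources used here. A comparison with the scanner files showed them to be the log2 signal minus the 75th percentile, centred on each probe's median over 4 arrays, with genotype labels exchanged. Its column medians were 0.08 and -0.03 for WT and 0.01 and -0.03 for ced2.

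The main value was the log2 processed signal minus the 75th percentile of the array. Control and outlier spots were left out (70 of 43603 probes lost), and spots of a probe were averaged. Accessions were matched to RefSeq genes of TAIR10.1, used for names and order alone, since the array header names an older build; 34236 probes matched. The table named all 33 members. A gene was represented by its brightest probe and tested where that probe stood well above background on each array of 1 or both groups. Limma 3.58.1 (R 4.3.3, 2 residual and 1.49 prior degrees of freedom, two-sided) compared the groups, with Benjamini-Hochberg adjustment over 20835 genes. The number of arrays limits the precision.

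Members and lists were chosen with earlier results of these data known. Members past 2-fold, and those with neighbours, are given with values on each array. Of other lists, markers included, up to 4 genes past 2-fold are named by smallest p. Alternatives were quantile normalization, normexp with an offset of 50 on median intensities, other filters, the mean over probes, a replicate block, an intensity trend, an adjusted p of 0.01, the value table, and leaving out each array.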

Additional observations from a re-analysis of the deposited data

How the results depend on the processing

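Of the 30 members tested, 25 kept their direction and their side of the threshold under every alternative run on single members, and XTH10, XTH12, XTH13, XTH19 and XTH30 did not. Quantile normalization gave a family median of 1.02 and 2 members lower at 2-fold, with XTH13 at -0.085. Normexp fitted on all spots gave a median of 0.51, 2 members lower at 2-fold, XTH12 at -0.51, XTH13 at -1.095 and XTH19 at -0.077, and XTH10 no longer passed (0.03, limma adjusted p = 0.654). It moved the median of all genes to -0.14, and the split over all genes to 5696 higher and 9937 lower from 8831 and 7408; relative to that median the family stood at 0.65, against 1.07 in the main setting. In this fit the estimated background was -83.42 and -98.52 on the WT arrays, against 6.00 and 5.10 on the ced2 arrays. The WT arrays had 4 and 3 spots at or below their local background. Without them, a setting chosen after seeing the data, the estimates were 1.00 and 3.86, the family median was 0.75 and XTH13 was at -0.18. With no filter on dim probes the median over 33 members was 0.78. Over the brightest 3 of 5 bins alone, also chosen after seeing the data, 14 members were higher, 3 lower, 8 and 0 of them by 2-fold, with a median of 0.77; fewer genes are counted there, and 0 is a count of limma calls. The value table's own labels turned every direction, with 5 higher, 24 lower, 1 and 16 of them by 2-fold, and a median of -1.12. Leaving out 1 array gave 22 to 23 higher members, 5 lower, and medians between 1.104 and 1.128; XTH13 ranged from -0.59 to 0.76, at -0.35 without WT replicate 2. The lone array is then assumed to vary like the other group. Deviations of arrays with the same replicate number were barely correlated across genes (0.05). With 2 arrays per group that cannot decide whether the samples were paired. A replicate block gave 23 higher and 5 lower, XTH30 being lost (limma adjusted p = 0.0583). XTH30 was also lost without a filter (limma adjusted p = 0.0551) and with either normexp fit. Unless stated, the cause of a change was not tested.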
